A study of Mus musculus with 18 samples.

Results

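The genes described here are 38 listed genes of one-carbon (folate), serine, amino acid and nucleotide synthesis, with their amino acid transporters and the amino acid stress response. Each was read from the brightest of its probe sets that carry 1 gene symbol, that is, the one with the highest mean over all arrays, and 36 of the 38 had such a probe set, among 18193 genes in all. Pycr1, which makes proline, and Impdh2, an enzyme of guanine nucleotide synthesis, were not analysed here. The list follows the known roles of the genes and used no measured value for membership, but it was drawn up with results of these arrays already known.

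The arrays were Affymetrix expression arrays, and the RNA came from CD4 T cells that had been isolated from the spleen of C57BL/6 mice, 9 to 15 weeks old, on magnetic beads. Wild-type (WT) mice were compared with mice carrying a transgene (Tg) for Gli2A or for Gli2R, activating and repressing versions of Gli2, the zinc finger protein through which Hedgehog signals reach the genome. Cells of each genotype were examined without stimulation (resting) or after 6 h with antibodies to CD3 and CD28, which stand in for antigen and for co-stimulation. Each of the 6 groups had 3 arrays, 18 in all, and unstimulated cells cultured for 6 h were not analysed here, so a stimulation difference includes any effect of culture. The promoter and cell types that drive the transgenes are not given in the sources used here.

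A T cell that is about to divide needs building blocks for protein, RNA and DNA. The folate cycle carries one-carbon units, taken mainly from serine, into purines and thymidylate, and splits into a cytosolic and a mitochondrial branch. Transporters of neutral, basic and acidic amino acids supply the cell from outside. When amino acids run short, uncharged tRNA activates a kinase that slows translation and favours the transcription factor ATF4, whose targets include transporters, serine synthesis enzymes and Asns.

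Levels below are log2 of the intensity plus 16 after quantile normalization, and differences are between group means on that scale, which understates changes of dim genes. Differences carry their standard error (SE), and every group has n = 3. A gene was called higher or lower where the limma fit over all genes gave an adjusted p (Benjamini-Hochberg) under 0.05. Over all genes, the lower quartile of mean levels was 5.37 and the median 7.06. The number of arrays limits the precision. For the members, the 95% interval of a difference between 2 groups reached 0.38 to either side in the median and 0.93 in the widest case.

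Markers of other cells were measured beside those of T cells, since they moved with several results. All 8 measured T cell markers of 10 listed were present, led by Cd3d and Cd2. Their mean log2 level was 12.76 to 13.49 on resting and 11.93 to 12.22 on stimulated arrays. Their summed intensity was 74900 to 111000 on resting and 46400 to 54500 on stimulated arrays. In resting Gli2A Tg cells the T cell sum was 74900 to 98300, where the myeloid sum was 152000 to 166000. Sums over different genes do not measure shares of cells. The 15 myeloid markers, led by Csf1r and Slc40a1, had a summed intensity of 67500 to 166000 on resting arrays and 1580 to 6290 on stimulated ones. The 9 measured erythroid markers of 12 listed, led by Car2 and Tfrc, summed to 18700 to 117000 on resting arrays and 9960 to 21000 on stimulated ones. Tfrc, the transferrin receptor, which dividing T cells also make, gave 50.9% to 86% of that sum on stimulated arrays and was called higher with stimulation in Gli2R Tg cells (2.38 ± 0.32). Without it the sums were 17200 to 109000 and 1850 to 9700. The 8 B cell markers summed to 5020 to 27900 and 950 to 2150, and the 7 markers of CD8 T and NK cells to 6530 to 9830 and 2430 to 4520, and no marker was at 0 on any array. In bulk RNA, fewer cells of a type and less of its RNA per cell cannot be told apart. Resting Gli2A Tg replicate 3 had the highest mean level of erythroid markers, and replicate 3 had the highest within each of the 6 groups. Stimulated Gli2A Tg replicate 2 gave 3 for the 3' over the 5' probe set of beta-actin, against 1.26 to 1.82 on the other arrays, and partly degraded RNA raises this ratio. Mice of both sexes were used: a male expression pattern was present on 2 of the WT arrays at rest, on 1 WT and 2 Gli2R Tg arrays after stimulation, and on 0 of the arrays in the remaining 3 groups.

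Because ATF4 acts through a short element, the 250 bases before each transcription start were searched on both strands for TGATGNAA, the C/EBP-ATF response element, and for CACGTG, the E-box bound by MYC and related factors. The sequences are RefSeq's for GRCm38.p6, and a window was found for 35 of the 38 listed genes (42 windows, since some genes have several starts). The first motif lay in 5 of them (Asns, Chac1, Got1, Pycr1 and Slc7a11), or 11.9% of the members' windows, against 3.45% of all 32851 windows. In Trib3 the motif lies past the start, at base 14, and in Slc1a4 it begins 4 bases before the start and runs over it. The E-box lay in 4 (Aldh18a1, Atic, Impdh2 and Paics), or 9.52% against 6.02%. A match is a string of letters and not a measured binding site, and the windows are printed, 5' to 3' on the strand of the gene with the match in capitals, so that the genes carrying the same letters can be set beside their different values on the arrays. The windows are chr2:119350992-119351241 (plus strand) for Chac1, chr19:43524606-43524855 (minus) for Got1, chr6:7693210-7693459 (minus) for Asns, chr3:50443614-50443863 (minus) for Slc7a11 and chr1:71556906-71557155 (plus) for Atic. The Slc7a11 window lies inside the span that RefSeq gives the gene, and the Paics window, which overlaps Ppat on the other strand, is not printed.
Chac1: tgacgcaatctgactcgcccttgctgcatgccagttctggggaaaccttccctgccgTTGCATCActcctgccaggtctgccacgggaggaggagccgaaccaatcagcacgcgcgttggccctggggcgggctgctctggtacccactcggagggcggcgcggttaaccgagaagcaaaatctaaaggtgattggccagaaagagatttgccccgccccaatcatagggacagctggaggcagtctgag
Got1: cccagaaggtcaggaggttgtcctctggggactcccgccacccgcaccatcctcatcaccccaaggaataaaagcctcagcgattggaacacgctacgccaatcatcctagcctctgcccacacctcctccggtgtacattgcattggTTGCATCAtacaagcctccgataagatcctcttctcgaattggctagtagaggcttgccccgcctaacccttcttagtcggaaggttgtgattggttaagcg
Asns: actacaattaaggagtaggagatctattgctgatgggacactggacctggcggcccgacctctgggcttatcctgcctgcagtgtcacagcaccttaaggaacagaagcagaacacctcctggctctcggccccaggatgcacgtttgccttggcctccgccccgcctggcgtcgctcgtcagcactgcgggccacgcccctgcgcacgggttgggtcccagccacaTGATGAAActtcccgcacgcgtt
Slc7a11: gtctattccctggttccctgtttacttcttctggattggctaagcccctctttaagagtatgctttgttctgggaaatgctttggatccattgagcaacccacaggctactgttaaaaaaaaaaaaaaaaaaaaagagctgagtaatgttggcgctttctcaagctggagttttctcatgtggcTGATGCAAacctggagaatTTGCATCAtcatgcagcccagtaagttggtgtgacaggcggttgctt
Atic: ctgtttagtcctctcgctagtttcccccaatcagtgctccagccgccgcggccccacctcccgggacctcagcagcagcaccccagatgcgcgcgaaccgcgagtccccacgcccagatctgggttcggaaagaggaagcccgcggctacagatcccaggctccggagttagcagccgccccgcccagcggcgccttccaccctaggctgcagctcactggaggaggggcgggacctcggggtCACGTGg
On the arrays, Chac1 and Got1 rose with stimulation, and Slc7a11 showed no called difference on its brightest probe set. In the main fit Asns was called lower in WT alone, on 1 of its 2 probe sets. That call was lost with the erythroid covariate and kept with the replicate block, both described below. The Atic window, with its E-box beginning 7 bases before the start, belongs to a gene whose probe sets disagree. The element in Asns begins 23 bases before the start, and those in Slc7a11 66 and 47 bases before it.

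The first question is how these genes move when CD4 T cells are stimulated. In WT cells 29 of the 36 members rose and 3 fell (Bcat2, Asns and Ddit3), where 19.7% of all genes rose and 22% fell. Gli2A Tg cells gave 29 higher and 3 lower (Bcat2, Ddit3 and Atic) beside 20.2% and 22.8% of all genes, and Gli2R Tg cells 29 higher and 1 lower (Ddit3) beside 19.8% and 22.5%. The 3 comparisons share no arrays. Called higher in all 3 were 28 members, or 77.8%, against 13.9% of all genes, and 1 member, Ddit3, was lower in all 3, against 16.4% of all genes. The median member difference was 1.67 for WT, 1.57 for Gli2A Tg and 1.74 for Gli2R Tg, while the median over all genes was 0, 0 and 0.01. Slc7a11 and Got2 passed in no genotype on their brightest probe sets. Of the members called in WT, 28 differed by more than 2-fold.

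**Figure D1:**
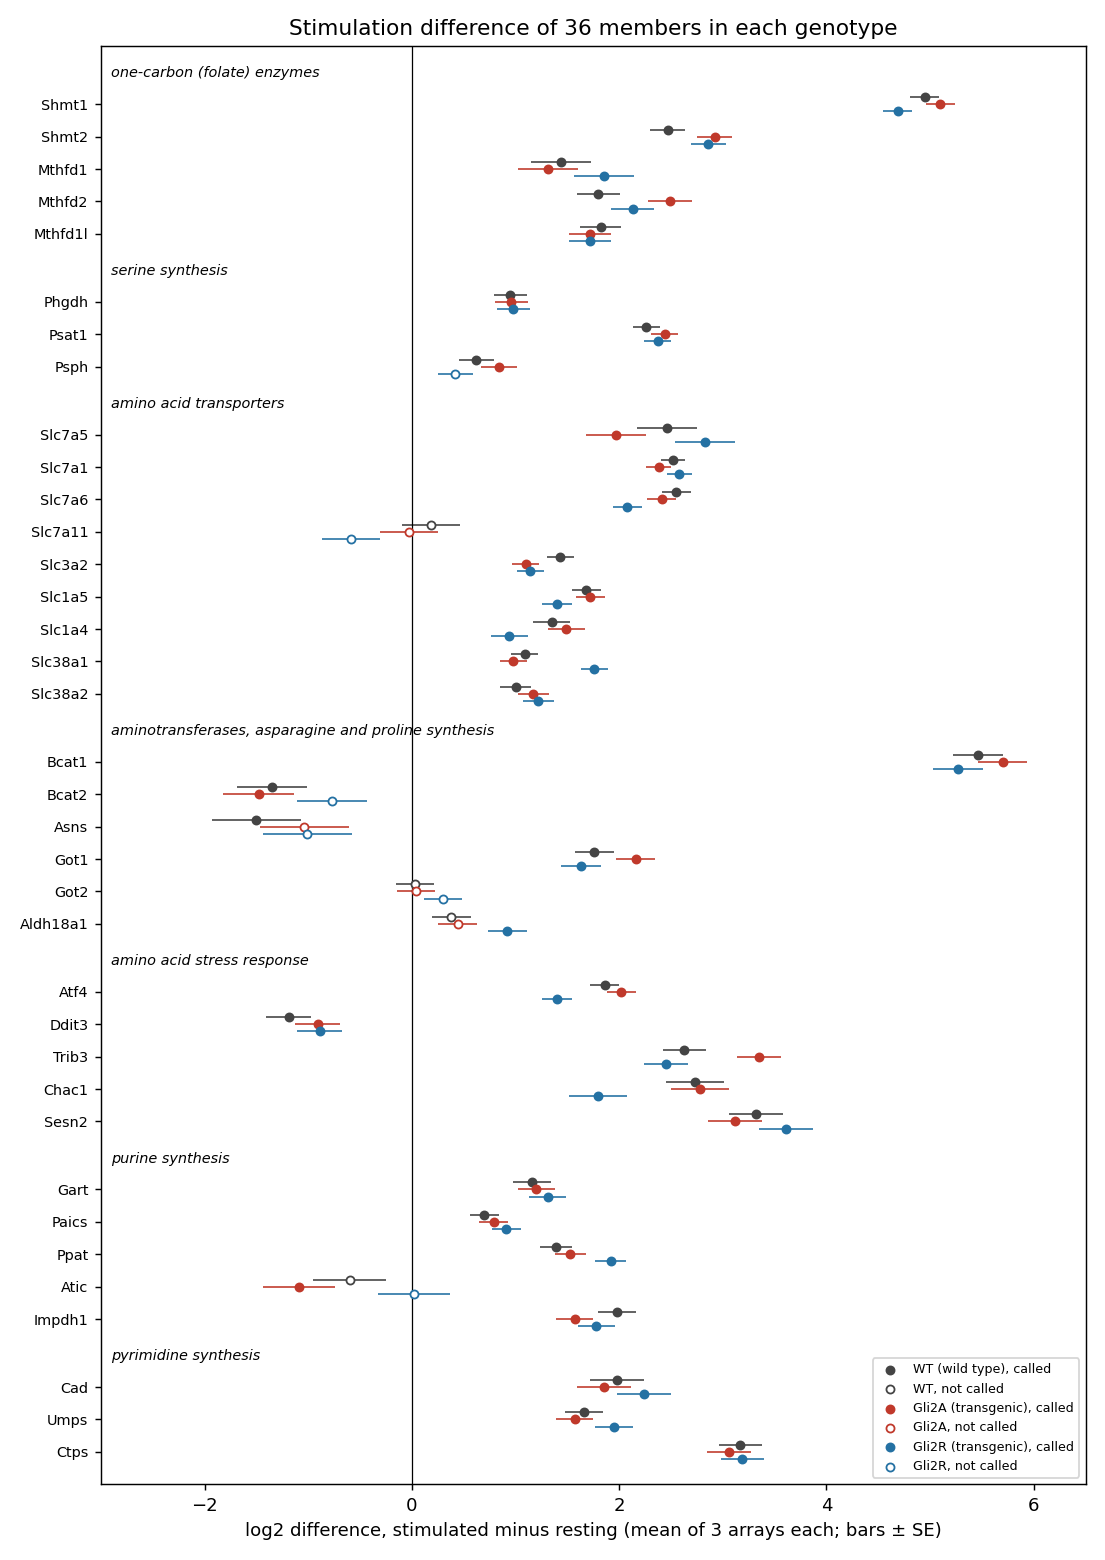
Difference between stimulated and resting arrays on the log2 scale (x axis) for each of the 36 members (y axis, grouped by role), in WT, Gli2A Tg and Gli2R Tg cells. Points are differences of means of 3 arrays, bars are ± SE and filled points passed the limma test, and Bcat1 and Shmt1 lie far to the right in every genotype while Ddit3 lies left of 0 in all 3.

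The one-carbon enzymes rose as a whole, 5 of 5 in each genotype. Shmt1, the cytosolic enzyme that takes a one-carbon unit from serine, stood at 7.86, 8.10 and 8.26 on the resting WT arrays and at 13.05, 12.96 and 13.07 after stimulation. In Gli2A Tg cells it went from 7.60, 7.94 and 7.65 to 12.92, 12.75 and 12.82, and in Gli2R Tg cells from 7.99, 8.21 and 8.38 to 12.91, 12.82 and 12.92. All 9 stimulated arrays lay more than 4 log2 units above all 9 resting ones. The WT rise was 4.95 ± 0.14, or 30.9-fold (adjusted p = 2.77e-11), and the transgenic lines gave 5.10 ± 0.14 and 4.69 ± 0.14. Its 4 probe sets differed in size in WT, from 2.95 to 5.16, and all were called higher.

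The mitochondrial enzymes of the cycle rose as well. Shmt2, the mitochondrial counterpart of Shmt1, rose by 2.47 ± 0.17 in WT, 2.92 ± 0.17 in Gli2A Tg cells and 2.86 ± 0.17 in Gli2R Tg cells. Mthfd2, the mitochondrial methylene-tetrahydrofolate dehydrogenase, rose by 1.80 ± 0.21, 2.49 ± 0.21 and 2.13 ± 0.21, and Mthfd1l, which releases formate from the mitochondrion, by 1.82 ± 0.20, 1.72 ± 0.20 and 1.72 ± 0.20. Mthfd1, the cytosolic enzyme that puts that formate back onto folate, rose by 1.44 ± 0.29, 1.31 ± 0.29 and 1.85 ± 0.29. Its resting levels varied most in Gli2A Tg cells, with 11.12, 11.84 and 12.88, against 12.10, 11.82 and 12.11 in WT and 11.15, 11.41 and 11.51 in Gli2R Tg cells. The stimulated arrays stayed between 13.19 and 13.47, above every resting array. The high resting value is that of replicate 3, the array with the highest erythroid mean. The part of other cells in it was not tested beyond the covariates described below. With the erythroid mean as a covariate the WT rise of Mthfd1 was 2.24 ± 0.48 (adjusted p = 0.00316).

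All 3 enzymes that make serine from a glycolytic intermediate were higher in WT. Psat1, the aminotransferase of the middle step, moved from 11, 11.08 and 11.32 to 13.46, 13.36 and 13.35 in WT. The transgenic lines were alike in size, from 10.65, 10.68 and 10.77 to 13.18, 12.91 and 13.33 in Gli2A Tg cells and from 11.02, 11.03 and 11.10 to 13.40, 13.50 and 13.35 in Gli2R Tg cells, and no stimulated array reached down to a resting one. The differences were 2.26 ± 0.13, 2.44 ± 0.13 and 2.37 ± 0.13. Phgdh, the first and committed enzyme, rose by 0.95 ± 0.16, 0.96 ± 0.16 and 0.98 ± 0.16 on its brightest probe set. Its other 3 probe sets gave 1.09, 2.30 and 2.14 in WT, so the size depends on the probe set and the direction does not. Psph, the phosphatase of the last step, rose by 0.62 ± 0.17 in WT and 0.84 ± 0.17 in Gli2A Tg cells. In Gli2R Tg cells Psph gave 0.42 ± 0.17 and missed the threshold (adjusted p = 0.0573), and it passed without resting Gli2R Tg replicate 3 (0.59, adjusted p = 0.00961).

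Of the 9 amino acid transporters 8 rose in every genotype on their brightest probe sets, among them Slc38a2, whose probe sets disagree. Slc7a1, the carrier of arginine and lysine, stood at 11.37, 11.49 and 11.29 on resting WT arrays and at 14.02, 13.71 and 13.98 after stimulation. Both transgenic lines kept similar bands, 11.24 to 11.63 at rest and 13.78 to 14.05 after stimulation. The rise was 2.52 ± 0.12 in WT (5.73-fold), 2.38 ± 0.12 in Gli2A Tg cells and 2.58 ± 0.12 in Gli2R Tg cells. Slc7a5, the light chain of the leucine carrier, rose by 2.46 ± 0.29, 1.97 ± 0.29 and 2.83 ± 0.29, and its heavy chain Slc3a2 by 1.43 ± 0.13, 1.10 ± 0.13 and 1.14 ± 0.13. Slc7a6, a further partner of that heavy chain, rose by 2.55 ± 0.14, 2.41 ± 0.14 and 2.08 ± 0.14. The difference of the Gli2A Tg rise of Slc7a5 from that in WT was not called (-0.49 ± 0.41, adjusted p = 0.735). Nor was its difference from the Gli2R Tg rise (-0.86 ± 0.41, adjusted p = 0.477). Resting Gli2A Tg levels of Slc7a5 were 9.70, 10.21 and 11.15, the last on replicate 3, where resting WT arrays gave 9.95, 9.38 and 9.95.

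The carriers of small neutral amino acids and glutamine rose in each genotype too on their brightest probe sets. Slc1a5 gave 1.68 ± 0.14, 1.72 ± 0.14 and 1.40 ± 0.14 in WT, Gli2A Tg and Gli2R Tg cells, and Slc1a4, a carrier of alanine, serine and cysteine, 1.35 ± 0.18, 1.49 ± 0.18 and 0.94 ± 0.18. Slc38a1 gave 1.09 ± 0.13, 0.98 ± 0.13 and 1.76 ± 0.13. Slc38a2, which cells induce when amino acids are scarce, rose by 1.00 ± 0.15, 1.17 ± 0.15 and 1.22 ± 0.15 on its brightest probe set, 1426722_at. A further probe set of Slc38a2, 1429593_at, went the other way, by -1.31 ± 0.27 in WT (adjusted p = 0.00109), -0.68 ± 0.27 in Gli2A Tg cells and -1.29 ± 0.27 in Gli2R Tg cells. The mean of the Slc38a2 probe sets was 0.05 in WT and not called, so the direction of Slc38a2 is not settled either. Slc7a11, the cystine carrier, was the exception among the transporters, with resting WT levels of 6.08, 5.38 and 5.27 and stimulated ones of 6.01, 5.58 and 5.67, and these ranges overlap. Its WT difference was 0.18, with a 95% interval from -0.41 to 0.77, at a level near the lower quartile of all genes, and in Gli2R Tg cells it was -0.59 ± 0.28 (adjusted p = 0.105). Without stimulated Gli2R Tg replicate 1 that difference was called (-0.86, adjusted p = 0.0231). The dimmer probe set of Slc7a11, 1443536_at, was called in the other direction in Gli2R Tg cells (0.94 ± 0.35, adjusted p = 0.0439) and gave 0.74 ± 0.35 in WT and -0.18 ± 0.35 in Gli2A Tg cells without a call, so the direction of Slc7a11 in Gli2R Tg cells is not settled.

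**Figure D2:**
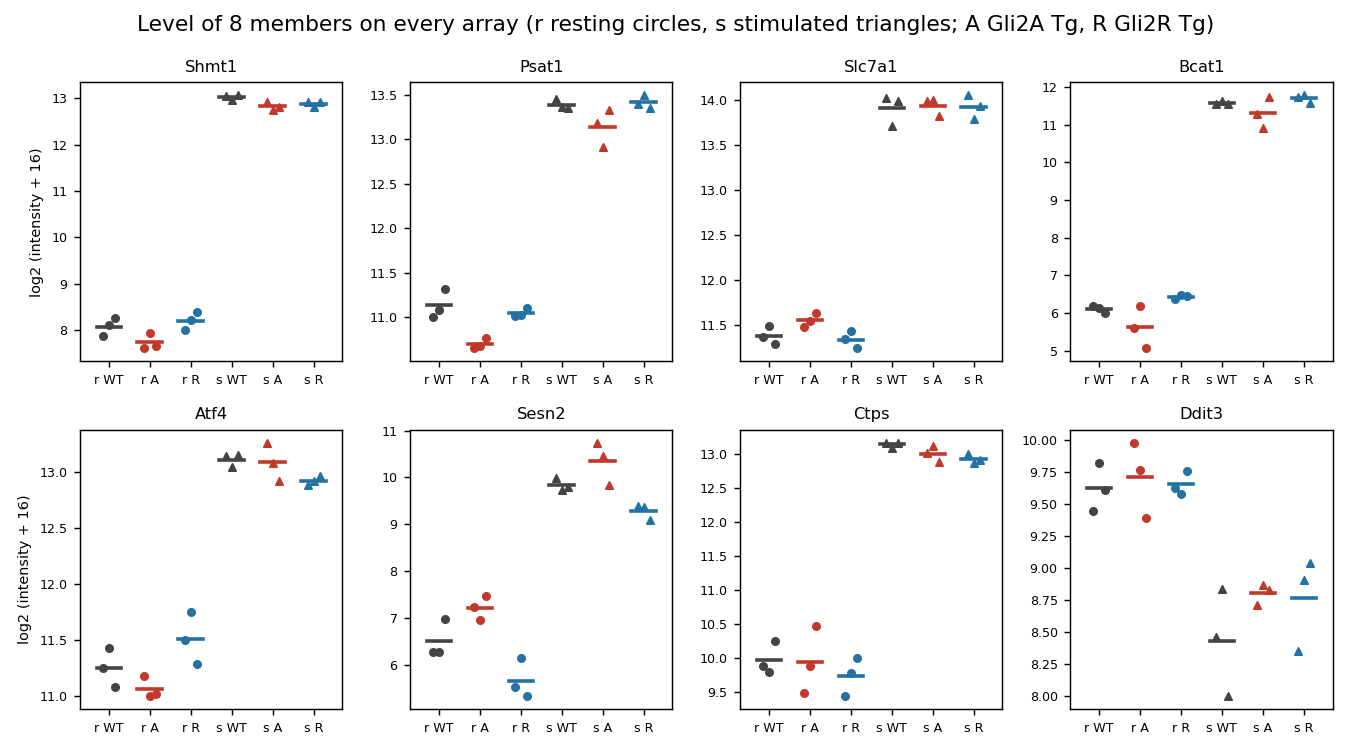
Level of 8 members on each of the 18 arrays as log2 of intensity plus 16 (y axis, a separate scale for each gene), by group (x axis: resting groups as circles, stimulated groups as triangles, horizontal lines for the means of 3 arrays). Stimulated arrays lie above all resting arrays for 7 of the genes, by most for Bcat1 and Shmt1, and Ddit3 lies lower after stimulation.

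The aminotransferases and the enzymes of asparagine and proline synthesis were the mixed group. Of 6 measured, 2 rose and 2 fell in WT, 2 rose and 1 fell in Gli2A Tg cells, and 3 rose and 0 fell in Gli2R Tg cells. Bcat1, the cytosolic enzyme that moves the amino group of leucine, isoleucine and valine, had the largest rise of all members. It stood at 6.20, 6.13 and 6.01 on resting WT arrays, below the median gene, and at 11.54, 11.62 and 11.55 after stimulation. Gli2A Tg arrays gave 5.60, 6.20 and 5.06 and then 11.28, 10.92 and 11.74, and Gli2R Tg arrays 6.37, 6.48 and 6.45 and then 11.73, 11.79 and 11.59. The gap of more than 4 log2 units was free of any array in all 3 genotypes. The rises were 5.46 ± 0.24 (43.9-fold, adjusted p = 8.68e-10), 5.70 ± 0.24 and 5.27 ± 0.24. Its other 2 probe sets rose by 3.96 and 0.95 in WT, so that the size rests on the brightest one.

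Its mitochondrial counterpart Bcat2 moved the other way. It fell from 8.31, 8.25 and 8.25 to 6.92, 7.12 and 6.72 in WT, and from 8.28, 7.96 and 8.22 to 6.56, 6.77 and 6.68 in Gli2A Tg cells, with no overlap. The differences were -1.35 ± 0.34 (adjusted p = 0.00447) and -1.48 ± 0.34 (adjusted p = 0.00221). In Gli2R Tg cells the stimulated arrays stood at 8.06, 8.05 and 6.26 against 8.34, 8.25 and 8.10 at rest. Here 1 array was low and the other two lay just below the resting ones, and the difference of -0.77 ± 0.34 was not called (adjusted p = 0.083). Without stimulated Gli2R Tg replicate 1 or 2 it was called at -1.08 or -1.07. Both of these fits kept the low array at 6.26, so these calls rest on that array. Got1, the cytosolic aspartate aminotransferase, rose by 1.76 ± 0.19, 2.16 ± 0.19 and 1.63 ± 0.19 in WT, Gli2A Tg and Gli2R Tg cells, while for its mitochondrial counterpart Got2 the WT difference was 0.03, with a 95% interval from -0.35 to 0.42.

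Asns makes asparagine and is a textbook ATF4 target. Its resting levels were 11.27, 11.26 and 11.81 in WT, 10.26, 11.08 and 12.38 in Gli2A Tg cells and 9.87, 9.99 and 10.98 in Gli2R Tg cells. After stimulation they were 9.74, 9.55 and 10.56, then 9.98, 10.22 and 10.39, and then 9.18, 9.41 and 9.23. The WT groups do not overlap, and the Gli2A Tg groups do. The difference was -1.50 ± 0.43 in WT (adjusted p = 0.0111), -1.04 ± 0.43 in Gli2A Tg (adjusted p = 0.0667) and -1.01 ± 0.43 in Gli2R Tg cells (adjusted p = 0.0755). Its other probe set gave -1.22 ± 0.48 in WT and missed the threshold (adjusted p = 0.0568).

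The erythroid markers were read beside Asns. Their mean log2 level was 10.91, 10.85 and 11.35 on the resting WT arrays, 10.80, 10.98 and 12.03 on the Gli2A Tg and 9.49, 9.02 and 10.03 on the Gli2R Tg arrays, and 7.83 to 9.33 on the stimulated ones. In each resting group the array with the highest erythroid mean, replicate 3, was also the one with the highest Asns. With the erythroid mean as a covariate, an alternative chosen after seeing the data, the Asns difference was 0.40 ± 0.51 in WT (adjusted p = 0.649), 1.22 ± 0.58 in Gli2A Tg cells and 0.04 ± 0.37 in Gli2R Tg cells, and none was called. With Tfrc left out of that mean it was 0.52 ± 0.58, 1.34 ± 0.65 and 0.30 ± 0.44, again with no call. With the same covariate Bcat1 still rose by 5.27 ± 0.43 and Shmt1 by 5.06 ± 0.26 in WT, and Bcat2 still fell by 1.94 (adjusted p = 0.03). Under it 28 members rose and 2 fell in WT, 28 rose and 1 fell in Gli2A Tg cells and 30 rose and 1 fell in Gli2R Tg cells. On its brightest probe set Aldh18a1, which starts proline synthesis, rose by 0.92 ± 0.19 in Gli2R Tg cells. That probe set gave 0.38 ± 0.19 and 0.44 ± 0.19 in WT and Gli2A Tg cells without a call. Without resting Gli2A Tg replicate 3 its Gli2A Tg difference was called at 0.68 (adjusted p = 0.0035). Of the further probe sets, 1415836_at (0.79 ± 0.25) and 1437620_x_at (1.22 ± 0.29) were called higher in WT, and 1437333_x_at (1.13 ± 0.25) in Gli2A Tg cells. The others gave 0.48 and 0.58 in WT and 0.32 to 0.73 in Gli2A Tg cells without a call.

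**Figure D3:**
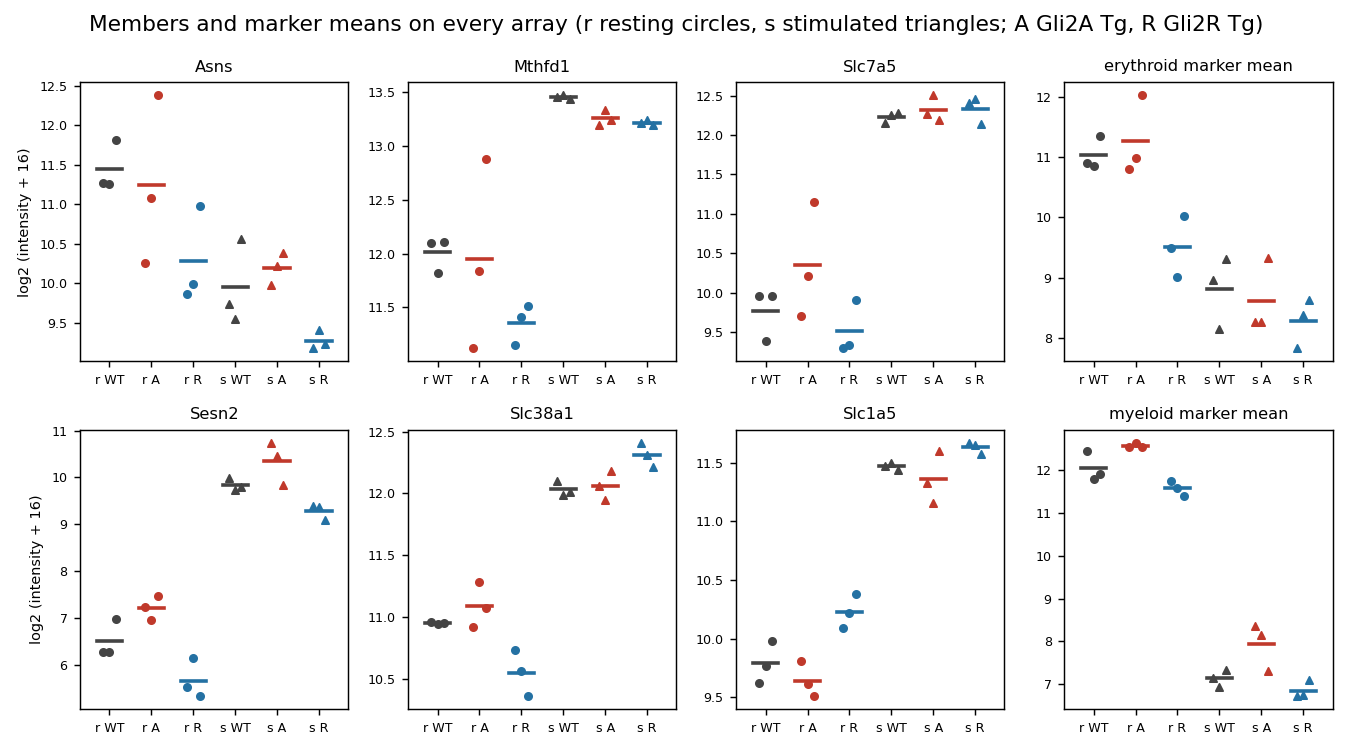
Level of 6 members and the mean level of the erythroid and myeloid markers on each array, as log2 of intensity plus 16 (y axis, a separate scale for each panel), by group (x axis: resting circles, stimulated triangles, lines for means of 3 arrays). Resting Gli2A Tg replicate 3 is the highest resting array for Asns, Mthfd1, Slc7a5 and the erythroid mean, and the mean of Sesn2 at rest is highest in Gli2A Tg cells and lowest in Gli2R Tg cells.

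The amino acid stress response split, with 4 of 5 members up and 1 down in every genotype. Atf4, the transcription factor at its centre, rose from 11.25, 11.43 and 11.08 to 13.14, 13.04 and 13.15 in WT, by 1.86 ± 0.14, and by 2.02 ± 0.14 in Gli2A Tg cells and 1.40 ± 0.14 in Gli2R Tg cells. Sesn2, a leucine-binding inhibitor of the growth kinase mTORC1, rose from 6.28, 6.28 and 6.98 to 9.98, 9.74 and 9.79 in WT, and no stimulated array came near a resting one. That is 3.32 ± 0.26, or 10-fold (adjusted p = 9.49e-08), with 3.12 ± 0.26 and 3.61 ± 0.26 in the transgenic lines. The other probe set of Sesn2 gave 0.65 ± 0.69 in WT and 0.32 ± 0.69 in Gli2A Tg cells and was not called in either. In Gli2R Tg cells it was called higher (1.88 ± 0.69, adjusted p = 0.0407). Chac1, which breaks down glutathione, rose by 2.73 ± 0.28, 2.78 ± 0.28 and 1.80 ± 0.28, and the pseudokinase Trib3, an ATF4 target that restrains the response, by 2.63 ± 0.21, 3.35 ± 0.21 and 2.45 ± 0.21.

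Ddit3 (CHOP), the factor that ties prolonged stress to cell death, fell instead. WT arrays went from 9.45, 9.82 and 9.61 to 8.46, 8.84 and 8, Gli2A Tg arrays from 9.98, 9.77 and 9.39 to 8.71, 8.87 and 8.83, and Gli2R Tg arrays from 9.63, 9.58 and 9.76 to 8.35, 8.91 and 9.04. Every stimulated array lay below every resting one. The differences were -1.19 ± 0.22 (adjusted p = 0.00044), -0.91 ± 0.22 (adjusted p = 0.0035) and -0.89 ± 0.22 (adjusted p = 0.00412). A further probe set gave -1.67, -0.75 and -1.13, of which the Gli2A Tg value was not called. Myeloid and erythroid RNA fell in the same comparison, and with the erythroid mean as a covariate the WT fall was 1.51 on the log2 scale (adjusted p = 0.013), while the Gli2A Tg value of -1.29 missed the threshold (adjusted p = 0.0593).

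Purine synthesis rose in 4 of 5 measured members in each genotype on their brightest probe sets. Ppat, the committed first enzyme, rose by 1.39 ± 0.15, 1.53 ± 0.15 and 1.92 ± 0.15 in WT, Gli2A Tg and Gli2R Tg cells, and Gart, which uses folate-bound formyl groups, by 1.16 ± 0.18, 1.20 ± 0.18 and 1.31 ± 0.18. Paics, the next bifunctional enzyme, rose by 0.70 ± 0.14, 0.79 ± 0.14 and 0.91 ± 0.14 on its brightest probe set. A probe set of Paics almost as bright, 1423565_at, gave 0.32 ± 0.13, 0.13 ± 0.13 and 0.21 ± 0.13 with no call. The dimmer 1436298_x_at was called higher in each genotype, by 1.36 ± 0.33, 2.12 ± 0.33 and 2.75 ± 0.33. The size of the Paics rise therefore depends on the probe set. Impdh1, which opens the branch to guanine nucleotides, rose by 1.98 ± 0.18, 1.57 ± 0.18 and 1.78 ± 0.18. Paics starts at base 76951302 of chromosome 5 on the plus strand and Ppat at base 76951578 on the minus strand (GRCm38.p6), so the spans of these 2 members overlap at their starts.

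Atic, the enzyme of the last steps to inosine monophosphate, was read differently by its 2 probe sets. On the brightest, 1428506_at, WT arrays went from 12.36, 12.52 and 12.46 to 11.85, 11.89 and 11.79, and Gli2A Tg arrays from 12.20, 11.96 and 12.74 to 11.91, 10.18 and 11.55. The Gli2A Tg value was called lower (-1.09 ± 0.35, adjusted p = 0.0199), and the WT value was not (-0.60 ± 0.35, adjusted p = 0.192). The low value of 10.18 is stimulated Gli2A Tg replicate 2, the array with the high beta-actin ratio, and without it the Gli2A Tg difference was -0.57 and not called (adjusted p = 0.096). Leaving out resting Gli2A Tg replicate 3 also ended the call (-0.87, adjusted p = 0.0902). On 1452811_at, WT arrays rose from 8.19, 8.42 and 8.14 to 10.73, 10.87 and 11.11, with no overlap. The differences on this probe set were 2.65 ± 0.25, 2.16 ± 0.25 and 2.16 ± 0.25 in WT, Gli2A Tg and Gli2R Tg cells, all called. The direction of Atic is therefore not settled by these arrays.

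All 3 pyrimidine members rose in every genotype. Ctps, which makes CTP from UTP, went from 9.89, 9.79 and 10.25 to 13.17, 13.10 and 13.17 in WT, and in both transgenic lines the stimulated arrays (12.87 to 13.12) also lay far above the resting ones (9.44 to 10.48). The rises were 3.17 ± 0.21 (9.02-fold), 3.06 ± 0.21 and 3.19 ± 0.21. Cad, the enzyme of the first 3 steps, rose by 1.98 ± 0.26, 1.85 ± 0.26 and 2.24 ± 0.26, and Umps, of the last steps to UMP, by 1.66 ± 0.18, 1.57 ± 0.18 and 1.95 ± 0.18. A probe set of Cad almost as bright, 1452829_at, gave 0.66 ± 0.22 in WT and 0.90 ± 0.22 in Gli2R Tg cells, both called, and 0.14 ± 0.22 in Gli2A Tg cells (adjusted p = 0.675). The dimmest, 1440857_at, gave 0.59, -0.19 and 0.20 in the 3 genotypes with no call. The mean of the probe sets was 0.60 in Gli2A Tg cells and not called (adjusted p = 0.0678).

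Probe sets of 1 gene did not always tell the same story. The 36 members had 87 probe sets in all, and 27 members had more than 1. Of the 51 further probe sets, 47 had the sign of the brightest one in WT, and 3 were called in the opposite direction, 1 each for Atic, Slc38a2 and Got2. For Got2 the further probe set 1417716_at fell by 0.71 in WT (adjusted p = 0.0139), where the brightest gave 0.03, and it was also called lower in Gli2A Tg (-1.08 ± 0.21) and Gli2R Tg cells (-0.82 ± 0.21). The dimmer 1430397_at of the same gene was called higher in Gli2A Tg (1.38 ± 0.22, adjusted p = 8.75e-05) and Gli2R Tg cells (1.63 ± 0.22, adjusted p = 1.73e-05) and gave 0.52 ± 0.22 in WT without a call, so its probe sets oppose each other. Counting a member by any of its probe sets gave 31 higher and 5 lower in WT.

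**Figure D4:**
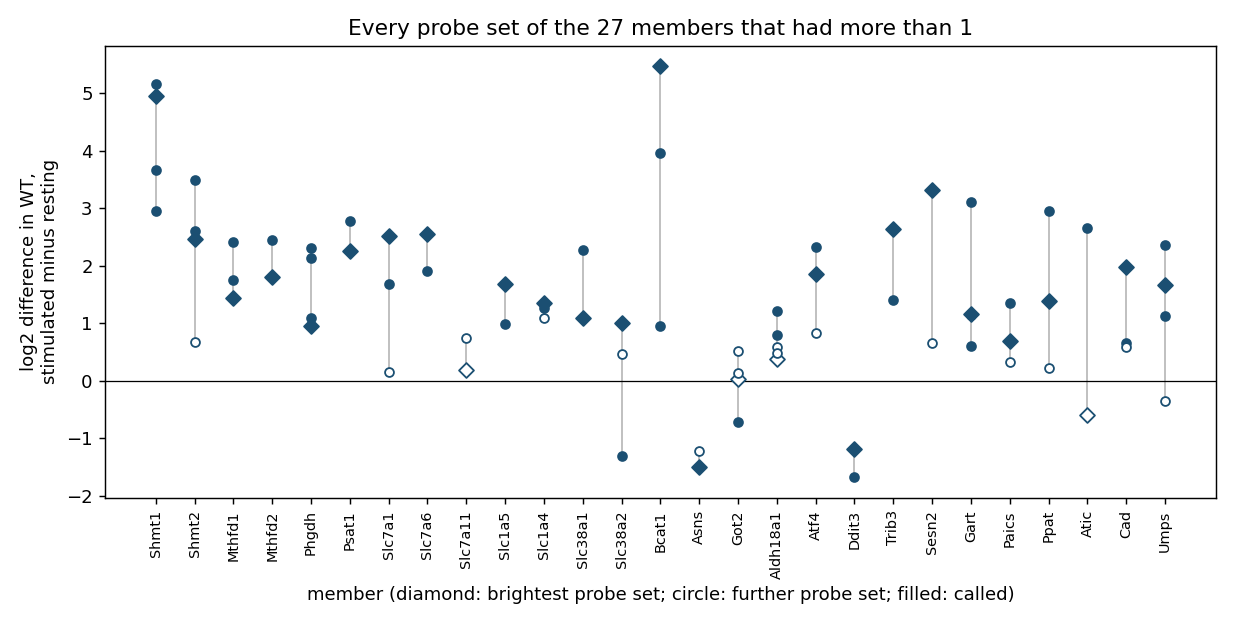
Log2 difference between stimulated and resting WT arrays (y axis) for every probe set of the 27 members that have more than 1 (x axis). Diamonds are the brightest probe sets, circles the others, filled symbols passed the limma test, and Slc38a2 has called values on both sides of 0, and Atic a called value above 0 and one below 0 that was not called.

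Replicate arrays lay close together for these genes. Their median SD within a group was 0.21, against 0.34 over all genes, and it was 0.24 at rest and 0.14 after stimulation, where all genes gave 0.31 in both. Most members were brighter than the median gene (7.06), and no set of genes matched for level was compared. Whether the smaller SD is particular to these genes was therefore not tested. Resting Gli2A Tg replicate 3 lay more than 0.5 from its group mean in 7 members, the most of any array, and leaving it and stimulated Gli2A Tg replicate 2 out changed no count of higher members by more than 1.5 times.

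The next question is whether either Gli2 transgene alters these genes. At rest, Gli2A Tg against WT cells gave 0 called members (0.55% of all genes were called), and Gli2R Tg against WT cells also gave 0, where 0% of all genes were called. Members with an unadjusted p under 0.05 numbered 6 and 9 of 36 in the limma fits, where 10.1% and 10.3% of all genes had one. The lowest p in the first comparison belonged to Psat1 (-0.44 ± 0.13, adjusted p = 0.192) and Got1 (-0.55 ± 0.19, adjusted p = 0.308), and in the second to Sesn2 (-0.85 ± 0.26, adjusted p = 0.266) and Ppat (-0.47 ± 0.15, adjusted p = 0.276). A missed threshold does not show that the genotypes are alike, and the interval for resting Sesn2 in Gli2R Tg against WT cells ran from -1.41 to -0.29.

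Gli2A Tg against Gli2R Tg cells at rest was the comparison with called members, 3 of 36 beside 2.4% of all genes. Sesn2 stood at 7.23, 6.96 and 7.47 in Gli2A Tg cells and at 5.52, 6.14 and 5.33 in Gli2R Tg cells, while WT arrays at 6.28, 6.28 and 6.98 reached just into the Gli2A Tg range. The groups of the 2 transgenic lines do not overlap, and the difference was 1.56 ± 0.26 (adjusted p = 0.00573). It was called without each array in turn, and not with the 6 compared arrays alone (adjusted p = 0.071), with the mean of its probe sets (1.17, adjusted p = 0.156) or with the erythroid (1.82, adjusted p = 0.159) or myeloid mean (1.24, adjusted p = 0.366) as a covariate. Slc38a1 was higher in Gli2A Tg cells (10.92, 11.28 and 11.07 against 10.73, 10.56 and 10.36), by 0.54 ± 0.13 (adjusted p = 0.0442), and its other probe set gave -0.29 ± 0.17. Slc1a5 was lower in Gli2A Tg cells (9.81, 9.61 and 9.51 against 10.09, 10.22 and 10.38), by -0.58 ± 0.14 (adjusted p = 0.0448), and its other probe set gave 0.06 ± 0.20. Neither group pair overlaps, but both calls sat at the threshold. The Slc38a1 call was lost without resting Gli2A Tg replicate 2 or 3 or resting Gli2R Tg replicate 2 or 3 (0.44 to 0.55), and the Slc1a5 call without resting Gli2A Tg replicate 2 or 3 or any resting Gli2R Tg array (-0.65 to -0.51).

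Markers of other cells differed between the same arrays. Called higher in Gli2A Tg cells were 2 of 9 erythroid and 3 of 15 myeloid markers. Of all 18193 genes 285 were called higher, and 2.4% were called either way. Of the 8 T cell markers 0 were called higher and 1 lower, Cd5 (-0.85 ± 0.16). The erythroid genes Alas2 and Slc4a1 were higher in resting Gli2A Tg than Gli2R Tg cells by 4.18 ± 0.59 and 3.80 ± 0.86, while Hba-a1 gave 0.00 ± 0.25 and Car1 0.70 ± 0.51 without a call. The macrophage genes Adgre1 and Mpeg1 were higher by 1.48 ± 0.28 and 1.30 ± 0.24 and Fcer1g by 1.19 ± 0.30, and Itgam gave -0.24 ± 0.34 without a call. The myeloid markers other than Itgam all had positive differences, from 0.42 (Lyz2) to 1.48 (Adgre1), most of them not called. The lists' summed intensities were 46000 to 117000 against 18700 to 36000 for the erythroid list and 152000 to 166000 against 67500 to 83900 for the myeloid list. Asns, at 0.96 ± 0.43, was not called in this comparison (adjusted p = 0.274). The part of these cells in the 3 calls was not tested beyond the covariates above.

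After stimulation no member was called between genotypes. The share of all genes called was 0.137% for Gli2A Tg against WT, 0.044% for Gli2R Tg against WT and 0.231% for Gli2A Tg against Gli2R Tg cells, and 2, 0 and 7 members had an unadjusted p under 0.05 in limma, against 11.4%, 9.21% and 9.16% of all genes. The lowest p went to Trib3 (0.62 ± 0.21, adjusted p = 0.265) and Slc38a2 (0.35 ± 0.15, adjusted p = 0.392) in the first, to Sesn2 (-0.56 ± 0.26, adjusted p = 0.542) and Slc38a1 (0.28 ± 0.13, adjusted p = 0.548) in the second, and to Sesn2 (1.07 ± 0.26, adjusted p = 0.116) and Chac1 (0.95 ± 0.28, adjusted p = 0.231) in the third. These comparisons share arrays with each other. Stimulated Sesn2 arrays gave 10.74, 10.45 and 9.84 in Gli2A Tg cells and 9.38, 9.36 and 9.09 in Gli2R Tg cells, without overlap. Stimulated Chac1 arrays gave 9.55, 9.24 and 9.27 and 8.60, 8.45 and 8.16, also apart.

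The stimulation effect itself was tested between genotypes. No member differed in Gli2A Tg against WT (0.011% of all genes called), Gli2R Tg against WT (0%) or Gli2A Tg against Gli2R Tg cells (0.11%), and 2, 5 and 6 members had an unadjusted p under 0.05 in limma, against 10.1%, 8.65% and 10.6% of all genes. The smallest adjusted p belonged to Slc38a1, whose rise was smaller by 0.79 in Gli2A Tg than in Gli2R Tg cells (difference -0.79 ± 0.18, adjusted p = 0.122) and larger by 0.68 ± 0.18 in Gli2R Tg than in WT cells (adjusted p = 0.296). Next came Atf4 (0.62 ± 0.20, adjusted p = 0.27) in the former and Ppat (0.53 ± 0.21, adjusted p = 0.494) in the latter, and Trib3 (0.72 ± 0.30, adjusted p = 0.439) and Mthfd2 (0.68 ± 0.29, adjusted p = 0.458) in Gli2A Tg against WT cells. The 95% interval of such a difference reached 0.54 to either side in the median member and 1.31 in the widest, so that differences within such an interval of 0 could not be told from 0.

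Other genes of the same pathways were called in both directions. Of 105 further genes of folate, methionine, nucleotide and amino acid metabolism and of the stress response, 94 were measured. In WT 31 rose and 30 fell, with a median of 0.20, where 19.7% of all genes rose and 22% fell. Gli2A Tg cells gave 31 and 32 (median 0.02), beside 20.2% and 22.8% of all genes. Gli2R Tg cells gave 35 and 27 (median 0.17), beside 19.8% and 22.5%. Around the folate cycle 8 rose and 6 fell of 17 in WT. Slc19a1, the reduced folate carrier, rose from 10.29, 10.27 and 10.28 to 13.30, 13.16 and 13.38, by 3 ± 0.11 (8-fold), and Gcsh of the glycine cleavage system by 2.34 ± 0.12. Tyms, which makes thymidylate, fell by 1.86 in WT and 1.26 in Gli2A Tg cells. In Gli2R Tg cells Tyms gave -0.49 ± 0.34 without a call (adjusted p = 0.284). It was dim, with WT levels of 6.09, 6.78 and 6.60 at rest and 4.36, 4.71 and 4.81 after stimulation. The stimulated levels lay below the lower quartile of all genes (5.37). Aldh1l1, which oxidises formyl-folate, fell by 1.29, 0.92 and 0.71 in the 3 genotypes. In the purine list 7 rose and 3 fell of 14, with Adsl (1.24 ± 0.18), an enzyme of the same route as Paics, and Guk1 (1.18 ± 0.15), the guanylate kinase, up and the AMP deaminase Ampd3 (-3.89 ± 0.39) and Adssl1 (-1.29 ± 0.29), an adenylosuccinate synthase, down. Resting Ampd3 was highest on replicate 3 in WT (10.38), Gli2A Tg (10.69) and Gli2R Tg cells (9.67), as was the erythroid mean. The part of other cells in its fall was not tested.

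Genes of the supply of DNA building blocks were among the falls. Of 15 genes of pyrimidine and deoxynucleotide metabolism 4 rose and 7 fell in WT, beside 19.7% and 22% of all genes. Rrm2, the regulatory subunit of ribonucleotide reductase, fell from 12.56, 12.55 and 13.04 to 8.64, 8.34 and 9.13, a difference of -4.01 ± 0.37, and that of the thymidine kinase Tk1 was -2.41 ± 0.42. Resting Rrm2 was 12.32, 12.12 and 13.76 in Gli2A Tg cells and 11.26, 10.70 and 11.49 in Gli2R Tg cells, highest on the array with the highest erythroid mean and lowest in the line with the lowest erythroid means. Rrm2 and Tk1 were highest on replicate 3 in each of the 6 groups, as was the erythroid mean, and the part of other cells was not tested. Dctd (1.60 ± 0.19), the dCMP deaminase, and Uck2 (1.48 ± 0.24), a uridine-cytidine kinase, rose.

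Among 16 further amino acid enzymes 5 rose and 4 fell in WT, led by Gpt2 (2.01 ± 0.28), the mitochondrial alanine aminotransferase, and Pycrl (1.92 ± 0.16) of proline synthesis, with Gpt (-1.26 ± 0.28) and glutamine synthetase Glul (-0.93 ± 0.20) lower. Glul was also called lower in Gli2A Tg cells (-1.33 ± 0.20) and gave -0.05 ± 0.20 in Gli2R Tg cells without a call. Of 15 further transporters 3 rose and 7 fell. Of all genes 19.7% rose and 22% fell in the same WT comparison. Slc43a2, a carrier of large neutral amino acids, gave -2.73 ± 0.31 and Slc7a2, a carrier of arginine known from macrophages, -2.65 ± 0.30, while Slc25a22 rose by 1.24 ± 0.20 and Slc7a3 by 1.00 ± 0.26. In the wider stress response 4 rose and 3 fell of 17, with Ndrg1 (3.46 ± 0.18) and Atf3 (2.39 ± 0.28) up and Cebpb (-1.95 ± 0.34) and Jdp2 (-1.43 ± 0.22) down.

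**Figure D5:**
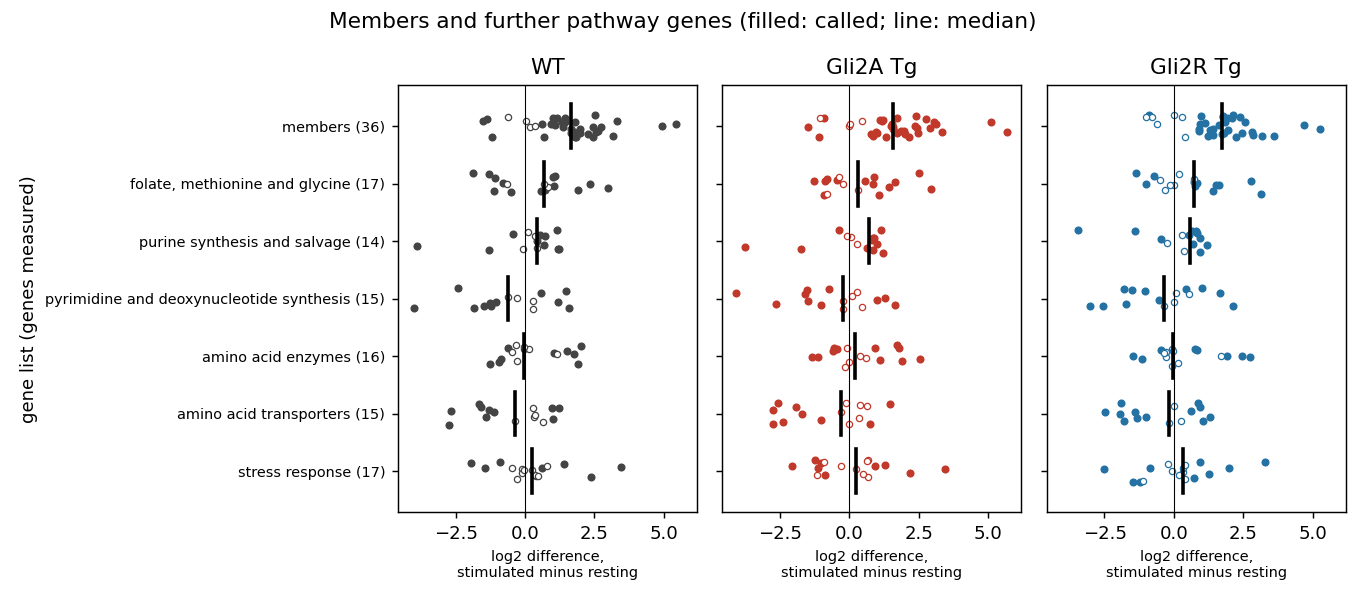
Log2 difference between stimulated and resting arrays (x axis) of each member and of each gene in 6 further pathway lists (y axis, with the number measured), in a panel for each genotype. Filled points passed the limma test and black lines are medians, and the members lie mostly right of 0 with a median of 1.67 in WT, while the further lists spread to both sides.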

How the data were processed

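The deposited table held 45101 probe sets on 18 arrays as linear intensity values, made by the authors with the affy package, version not given, per the submitters' processing notes. In the values, each array's mean without its outer 2% at each end is 500. The background correction and summary method are not given in the sources used here. Whether replicates came from separate mice is not given either. Within each WT group, and among the stimulated Gli2R Tg arrays, some arrays had the male pattern and others lacked it. The arrays of such a group therefore did not all come from the same animal. For the remaining groups the sex pattern cannot decide this, since no array there had the male pattern. The p-values reflect only how these samples spread, which may be technical in part, and wholly so in the remaining groups. Median intensities ran from 55.5 to 76.3.

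Intensities plus 16 were put on the log2 scale and quantile normalized. Of the probe sets 34945 had 1 gene symbol, 932 several, 9160 none and 64 were controls, and only the first were read, each gene from its brightest. Entrez numbers matched the RefSeq gene table for 34741 and 0 were renamed. The main model was a mean for each of the 6 groups, fitted by limma 3.58.1 (lmFit, eBayes; R 4.3.3) over the 18 arrays. It gave 12 comparisons, and p-values were adjusted over 18193 genes in each. The script was tested on simulated data. No 2 arrays were identical (highest correlation 0.981), and same-numbered arrays did not deviate together (27 pairs, r from -0.058 to 0.104), so no pairing was used, although replicate 3 had the highest erythroid mean in each group.

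The members and lists were chosen with earlier results of these data known. All members were named, with the called genes of the 2 largest rises and 2 largest falls of each further list in WT, every called member of each genotype comparison (or the 2 lowest p) and the 2 brightest markers of each cell type; other markers and the alternatives with the erythroid mean (with and without Tfrc) or without the pair of arrays were chosen after seeing the data.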

Additional observations from a re-analysis of the deposited data

How the results depend on the processing

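Each count and each member's stimulation difference was recomputed under other scalings, added constants, filters, probe set rules, limma options, covariates and sample sets, and without each array in turn. Apart from the marker covariates, 31 of 32 members called in WT, 29 of 32 in Gli2A Tg cells and 28 of 30 in Gli2R Tg cells kept call and direction in every alternative. Counts of higher members stayed within 1.5 times of the 29 in each genotype under every setting but the myeloid one.

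With the mean of the 15 myeloid markers as a covariate, 0 members were higher and 0 lower in any stimulation comparison, and 4, 11 and 5 of all genes were called. The covariate nearly coincides with stimulation, and it raised the members' median SE from 0.18 to 1.09 in WT, 1.03 in Gli2A Tg cells and 1.05 in Gli2R Tg cells, with 29, 30 and 29 members above 0. Called members whose difference changed sign under it were Phgdh (-0.23 in WT, -0.16 in Gli2A Tg cells and -0.16 in Gli2R Tg cells) and Slc1a5 (-0.02 in WT and -0.24 in Gli2R Tg cells), and Got2, Slc7a11, Psph and Atic, not called to begin with, changed sign in 1 or 2 genotypes each. With the erythroid mean, Asns in WT was 0.40 (0.52 with Tfrc left out of that mean), and 1 member was lower in Gli2A Tg cells under both. With a gene's probe sets averaged, Atic was 1.02 in WT and 0.54 in Gli2A Tg cells, since its probe sets disagree.

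Counts of lower members, which are small, moved more. In WT, reading every probe set gave 5 in place of 3. In Gli2R Tg cells the 1 became 3 with median centring, the deposited scaling alone, genes above the median level or every probe set, 2 with the replicate block, sex as a covariate, the compared arrays alone or resting Gli2A Tg replicate 3 and stimulated Gli2A Tg replicate 2 both left out, and 1 to 3 without each array (3 and 2 without stimulated Gli2R Tg replicate 1 and 2). Without each array the Gli2A Tg count was 2 to 4.

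In Gli2A Tg against Gli2R Tg cells at rest, the 3 called members became 1 with median centring, the deposited scaling, a constant of 1, the mean of probe sets, the replicate block, sex, or that pair of arrays left out, 6 with genes above the median level or with the trend and robust options, 0 with any of the marker covariates or the compared arrays alone, and 1 to 5 without each array. It was 5 without resting Gli2A Tg replicate 1 and 1 without resting Gli2A Tg replicate 3, Gli2R Tg replicate 2 or Gli2R Tg replicate 3. After stimulation the 0 became 2 with a constant of 64, 1 with genes above the median level and 0 to 1 without each array. For the stimulation effect between these lines it became 1 with genes above the median level or the trend and robust options, and 0 to 1 without each array, the 1 in both cases without stimulated Gli2R Tg replicate 3. In Gli2A Tg against WT cells at rest it became 1 with the mean of probe sets. The labels give the replicate numbers no meaning, and same-numbered arrays did not deviate together over all genes, but replicate 3 had the highest erythroid mean in each of the 6 groups. With the replicate block Asns was called lower in Gli2A Tg (-1.04, adjusted p = 0.0145) and Gli2R Tg cells (-1.01, adjusted p = 0.0172) too, no other member's call in a stimulation comparison changed, and no other count of members moved by more than 1.5 times. The cause of these shifts was not tested. Scaling moved the median of all genes in WT by 0.13 (median centring) and -0.07 (deposited scaling), with 51.1% and 39.3% of called genes higher in place of 47.2%, and 30 members higher and 3 lower under both.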
